A study of Mus musculus with 38 samples.

Results

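Zbtb16, Tbx21, Eomes, Rora and Nfil3 encode 5 transcription factors of innate lymphoid cells, and the occupancy of their loci was read from ChIP-seq peak lists of a mouse lymphoid progenitor (LP) line before and after Notch stimulation. A peak was counted for a gene when its centre lay inside the gene body or within 50 kb of either end. This rule took 281 of the 359759 peaks in all 17 lists and 5 of 21951 coding genes. Zbtb16 held 93 of these peaks, Tbx21 59, Eomes 22, Rora 54 and Nfil3 53.

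Innate lymphoid cells arise from the same lymphoid progenitors as T cells but do so without a rearranged antigen receptor, and the programs diverge early in development. Zbtb16 encodes PLZF, which marks precursors of innate lymphoid cells and drives the innate-like program of NKT cells. Tbx21 encodes T-bet, the factor of group 1 innate lymphoid cells and of type 1 helper T cells, and Eomes encodes its relative Eomesodermin, required for conventional NK cells. Rora encodes the nuclear receptor RORα, needed for group 2 innate lymphoid cells, and Nfil3 encodes a basic leucine zipper repressor needed for early precursors of innate lymphoid and NK cells. Of the proteins profiled, RUNX1 binds DNA with its partner Cbfβ, CTCF is an insulator and loop anchor, Med12 belongs to the Mediator complex that links enhancers to RNA polymerase, p300 is an acetyltransferase of active enhancers, and Notch1-IC is the part of the Notch1 receptor that enters the nucleus when a ligand is bound.

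All groups were Cas9-LP cells, made from fetal liver progenitors of Ebf1-deficient mice that carried Cas9 at Rosa26, so the B cell factor Ebf1 was missing and Cas9 present in every sample, controls included. LP samples were cultured on OP9 stroma without Notch ligand, and Phase 1 samples had been moved to OP9-DLL4 stroma, which displays the Notch ligand DLL4. RUNX1, CTCF, Med12 and p300 were profiled at both stages, and Notch1-IC in LP, Phase 1 and the later Phase 2. RUNX1 was also profiled in LP cells with control guide RNA (sgCont) or guides against Ctcf (sgCTCF) and in Phase 1 cells with sgCont or guides against Med12 (sgMed12), and Med12 in Phase 1 cells with sgCont or guides against Cbfb (sgCbfb). The guides were delivered by retrovirus, and the study notes that lists from such cells came from few cells and were noisier. Each of 19 groups had 2 replicates (38 samples, 4 of them inputs), and each of the 17 lists combined both, so that no list gives an error between cultures and no test between stages or guides was possible. Peak lists carry no RNA level, so neither the cells' identity nor the loss of a guide's target was checked here.

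The main lists held between 30020 and 49116 peaks. Those from cells with guides held 874 to 2094 RUNX1 peaks or 18099 to 19053 Med12 peaks, and the Notch1-IC lists 152 to 1585. The depth of each list was not used here, since the study's methods give only an approximate depth common to all samples, and a shorter list can reflect depth as well as occupancy. Every peak carried a score of 15 or more as normalized by the authors, and scores were used only to rank peaks within 1 list. In the text a score is followed by its percentile in its own list where rank matters. Stage-specific peaks (LP-specific or Phase 1-specific) had no peak of the same protein from the other stage within their bounds (not even 1 bp), and the remainder are referred to as shared.

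The sequence under the peaks is shown first for the Phase 1-specific and LP-specific RUNX1 peaks with the highest score at each gene. Each line holds the 200 bp around the peak centre, read from the plus strand of GRCm38 (mm10). Capitals mark matches on either strand to RUNX (TGTGGTT or TGCGGTT), RBPJ (GTGGGAA), PU.1 (GAGGAAGT) or AP-1 (TGACTCA or TGAGTCA) strings, or to the CTCF consensus with at most 1 mismatch. Eomes had no Phase 1-specific and Nfil3 no stage-specific RUNX1 peak, and the shared peaks chosen in their place are not printed because their windows touched a UTR.
Zbtb16 intron, 40.9 kb after the start, Phase 1-specific, chr9:48795167-48795366: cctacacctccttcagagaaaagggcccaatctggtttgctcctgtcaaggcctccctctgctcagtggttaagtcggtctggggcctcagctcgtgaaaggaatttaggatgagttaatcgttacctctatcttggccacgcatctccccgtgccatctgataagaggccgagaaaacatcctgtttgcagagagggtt
Zbtb16 intron, 18.7 kb after the start, LP-specific, chr9:48817454-48817653: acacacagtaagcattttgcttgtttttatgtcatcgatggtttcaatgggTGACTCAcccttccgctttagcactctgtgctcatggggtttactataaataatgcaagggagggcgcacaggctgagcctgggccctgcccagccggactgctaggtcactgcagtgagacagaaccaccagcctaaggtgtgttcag
Tbx21 intron, 12.0 kb after the start, Phase 1-specific, chr11:97103269-97103468: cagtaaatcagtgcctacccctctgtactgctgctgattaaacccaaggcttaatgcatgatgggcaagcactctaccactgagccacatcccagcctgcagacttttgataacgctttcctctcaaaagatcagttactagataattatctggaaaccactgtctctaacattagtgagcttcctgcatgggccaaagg
Tbx21, intergenic, 42.6 kb after the start, LP-specific, chr11:97072677-97072876: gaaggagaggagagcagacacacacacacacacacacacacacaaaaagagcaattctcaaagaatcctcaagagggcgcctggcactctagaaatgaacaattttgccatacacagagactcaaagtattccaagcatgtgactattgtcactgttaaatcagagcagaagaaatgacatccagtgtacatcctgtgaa
Eomes window, Golga4 intron, 46.8 kb after the start, LP-specific, chr9:118524945-118525144: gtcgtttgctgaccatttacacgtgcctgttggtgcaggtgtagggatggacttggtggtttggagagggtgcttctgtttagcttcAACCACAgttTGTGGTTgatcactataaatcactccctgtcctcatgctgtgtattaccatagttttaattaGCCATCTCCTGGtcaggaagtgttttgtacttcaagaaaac
Rora window, Ice2 intron, 778 kb after the start, Phase 1-specific, chr9:69431933-69432132: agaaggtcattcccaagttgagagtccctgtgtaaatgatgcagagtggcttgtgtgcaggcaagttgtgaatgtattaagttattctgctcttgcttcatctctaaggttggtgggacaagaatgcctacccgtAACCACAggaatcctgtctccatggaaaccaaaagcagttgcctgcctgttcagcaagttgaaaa
The shared RUNX1 peaks with the highest score inside Zbtb16 and Rora were added after their values had been seen, because they lie in introns of the genes themselves.
Zbtb16 intron, 21.5 kb after the start, shared, chr9:48814611-48814810: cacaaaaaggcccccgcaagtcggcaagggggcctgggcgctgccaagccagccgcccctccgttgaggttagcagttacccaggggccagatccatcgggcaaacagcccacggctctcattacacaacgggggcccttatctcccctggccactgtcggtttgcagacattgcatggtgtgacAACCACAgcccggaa
Rora intron, 682 kb after the start, shared, chr9:69336176-69336375: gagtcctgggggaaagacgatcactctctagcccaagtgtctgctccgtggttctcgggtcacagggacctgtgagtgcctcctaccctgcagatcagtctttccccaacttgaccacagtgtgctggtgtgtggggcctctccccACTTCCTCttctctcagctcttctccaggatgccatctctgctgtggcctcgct
The LP-specific peak at Eomes held 2 RUNX strings on opposite strands 3 bp apart, and the windows shown for the Phase 1-specific peaks of Zbtb16 and Tbx21 held none of the strings searched. Across the 33 Phase 1 RUNX1 peaks of the 5 genes, 7 (21.2%) had a RUNX string, compared with 25.4% of the whole list. In LP it was 5 of 25 (20.0%), compared with 21.2%. The CTCF consensus without mismatch was in 5 of 35 LP CTCF peaks (14.3%) and 5 of 34 Phase 1 CTCF peaks (14.7%), compared with 16.6% of either list, and in none of the RUNX1 peaks. The RUNX string was absent from the RefSeq GRCm38 promoters of Tbx21, Eomes, Rora and Nfil3 (short windows around the start). In that set only 6.75% of all 32851 promoters held it, so its absence does not set these genes apart. Zbtb16 had no promoter in the set and was not searched.

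Taking the 5 loci together, RUNX1 had 25 peaks in LP and 33 in Phase 1, Med12 23 and 32, p300 29 and 41, and CTCF 35 and 34. The whole lists were longer in Phase 1 too, from 31995 in LP to 38399 in Phase 1 for RUNX1, from 30020 to 39132 for Med12 and from 36182 to 49116 for p300, while CTCF had 45388 and 44793. When the longer list was reduced to its highest-scored peaks to give both the same length, the loci had 25 RUNX1 peaks in LP and 26 in Phase 1, whereas Med12 (23 and 20) and p300 (29 and 26) had fewer in Phase 1. The plot of peak counts by gene, protein and stage shows that Zbtb16 and Tbx21 carried the extra RUNX1 peaks and that Nfil3 had the same 5 in both stages.

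**Figure D1:**
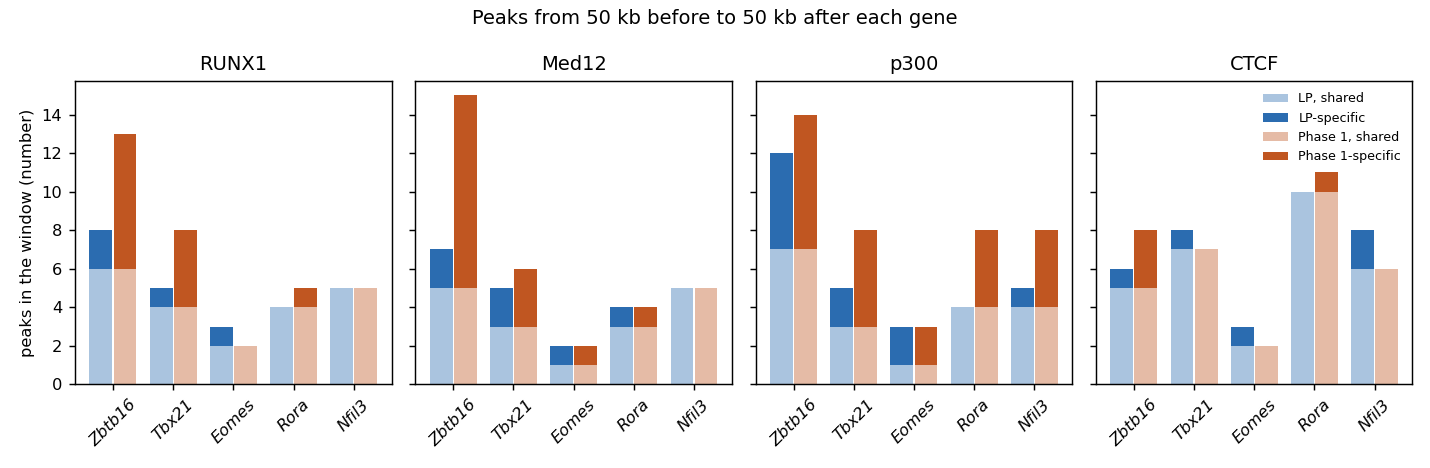
Number of peaks in each gene's window (vertical axis) for RUNX1, Med12, p300 and CTCF in LP (blue) and Phase 1 (orange); pale bars are peaks shared between the stages and dark bars stage-specific ones. Each list is 1 combined set, so there are no error bars. Zbtb16 had 7 Phase 1-specific RUNX1 and 10 Phase 1-specific Med12 peaks, and Nfil3 had none of either.

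Of the 33 Phase 1 RUNX1 peaks, 12 were Phase 1-specific (36.4%, 95% Wilson interval 22.2% to 53.4%, which covers counting error only), compared with 30.7% of the whole Phase 1 RUNX1 list. Of the 25 LP RUNX1 peaks, 4 were LP-specific (16.0%, interval 6.40% to 34.7%), compared with 16.8%. Both shares lie near their backgrounds. For Med12, 15 of 32 Phase 1 peaks were Phase 1-specific (46.9%, interval 30.9% to 63.6%, background 38.2%) and 6 of 23 LP peaks LP-specific (26.1%, background 19.5%). For p300 these were 22 of 41 (53.7%, interval 38.7% to 67.9%, background 41.6%) and 10 of 29 (34.5%, interval 19.9% to 52.7%, background 20.7%). CTCF moved least, with 4 of 34 Phase 1-specific (11.8%, background 8.35%) and 5 of 35 LP-specific (14.3%, background 9.55%). All these intervals hold their background value.

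The peaks of these loci sat low in their lists, with a median percentile of 33.6 in the LP and 36.6 in the Phase 1 RUNX1 list, and low-scored peaks are more often stage-specific. In the whole Phase 1 RUNX1 list, 70.6% of the lowest-scored 20% was Phase 1-specific and 2.66% of the highest-scored 20%. When peaks of the whole list were weighted to the score classes (20% of the list each) of the 33 peaks, the list had a Phase 1-specific share of 37.7%, close to the 36.4% found. For Med12 the corresponding values were 50.7% and 46.9%. With lists of equal length, the shares of stage-specific RUNX1 peaks were 30.8% in Phase 1 and 28.0% in LP, and for Med12 and p300 the order turned, with 35.0% in Phase 1 and 43.5% in LP for Med12 and 46.2% and 51.7% for p300.

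**Figure D2:**
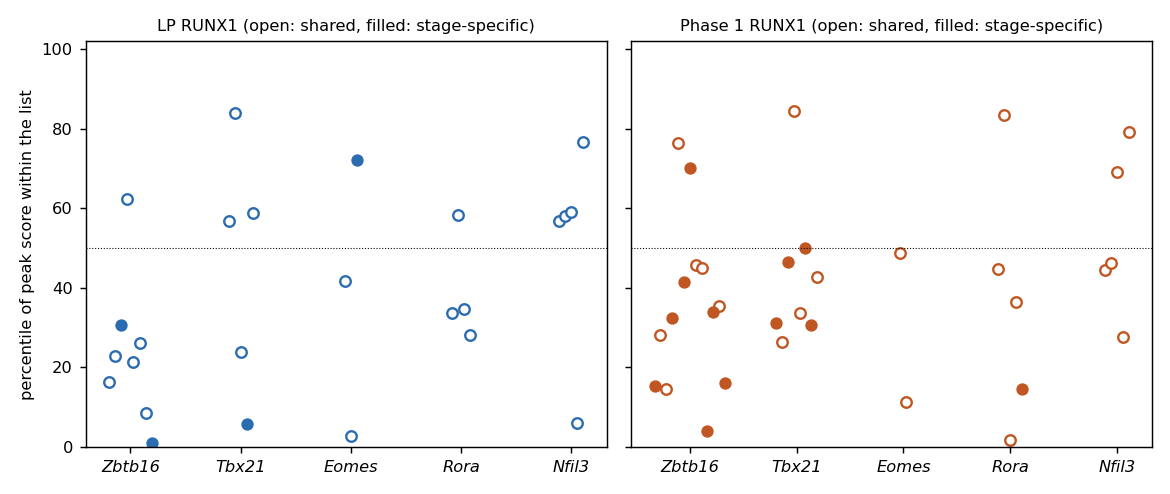
Percentile of each RUNX1 peak's score within its own list (vertical axis), by gene, for LP (left) and Phase 1 (right). Open circles are shared and filled circles stage-specific peaks, placed in order along the locus, and the dotted line is the list median. Apart from the peak 40.9 kb into Zbtb16 (percentile 70.1) and that 12.0 kb into Tbx21 (percentile 50.1), all Phase 1-specific peaks lay under the median.

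To see which proteins met at the same places, overlapping peaks of all lists were joined into 85 sites. RUNX1, Med12 and p300 were all listed in both stages at 15 sites, 4 at Zbtb16, 3 at Tbx21, 1 at Eomes, 3 at Rora and 4 at Nfil3. At 9 sites all of them were listed in Phase 1 and none in LP, 5 at Zbtb16, 3 at Tbx21 and 1 at Rora. The converse was seen at 2 sites, 1 at Zbtb16 and 1 in the Eomes window. The whole lists of these proteins were longer in Phase 1, and such joined sites were not counted over the genome. Of the 12 Phase 1-specific RUNX1 peaks, 11 overlapped a Phase 1 Med12 peak (91.7%, interval 64.6% to 98.5%, background 75.0%) and 10 a Phase 1 p300 peak (83.3%, interval 55.2% to 95.3%, background 79.6%). Of the 4 LP-specific RUNX1 peaks, 1 overlapped an LP CTCF peak (25.0%, interval 4.56% to 69.9%, background 36.8%). CTCF was listed without the other proteins at 29 of its 39 sites. By peaks, 25 of 35 LP CTCF peaks (71.4%, interval 54.9% to 83.7%) and 25 of 34 Phase 1 CTCF peaks (73.5%, interval 56.9% to 85.4%) overlapped no RUNX1, Med12 or p300 peak of either stage, close to the 76.7% and 76.4% of the whole lists.

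Zbtb16 (ENSMUSG00000066687.5, chr9:48654297-48836222, minus strand) held the most stage-specific RUNX1 and Med12 peaks of the 5 genes. Its RUNX1 peaks numbered 8 in LP and 13 in Phase 1, and 7 of the 13 were Phase 1-specific (53.8%, interval 29.1% to 76.8%). At the scores of these peaks the whole list had 43.1%. As many Phase 1-specific RUNX1 peaks lay around 0.820% of all coding genes, and per 100 kb the density of 2.48 was matched by 7.32% of genes, since Zbtb16 is long (182 kb). Med12 had 7 peaks in LP and 15 in Phase 1. Of the 15, 10 were Phase 1-specific (66.7%, interval 41.7% to 84.8%), compared with 53.1% of the whole list at the same scores. As many Phase 1-specific Med12 peaks were reached by 0.319% of genes, and their density by 3.50%.

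In LP, RUNX1 was listed at the Zbtb16 start with a score of 21.7 and, inside its introns, at 14.6 kb (25.2), 18.7 kb (30.0), 21.5 kb (64.5), 52.7 kb (24.3), 95.9 kb (27.1) and 129 kb (18.1) after the start, and beyond the gene at 187 kb (15.2). In Phase 1 the shared sites were again those at the start (26.4), 14.6 kb (19.9), 21.5 kb (92.2), 52.7 kb (39.6), 95.9 kb (38.7) and 129 kb (31.0). The intronic site at 21.5 kb stood highest in both lists, at percentiles 62.3 and 76.4. It carried Med12 (43.9 in LP, 81.9 in Phase 1) and p300 (177.4 and 181.0), and it was the only site of the 5 loci listed for RUNX1 in both Phase 1 guide lists.

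The Phase 1-specific RUNX1 peaks of Zbtb16 lay 1.2 kb before the start (20.2) and, in introns, at 16.5 kb (28.9), 31.5 kb (35.6), 40.9 kb (75.7), 123 kb (16.1), 124 kb (30.1) and 175 kb (20.5). Every one of the 7 overlapped a Phase 1 Med12 peak, and 6 overlapped p300. The site at 40.9 kb had the highest score, with Med12 at 55.3 and p300 at 75.3 in Phase 1 and no peak of any list in LP. At 124 kb p300 was already listed in LP (48.4), before RUNX1 and Med12 (45) in Phase 1. The peak before the start coincided with CTCF of both stages (67.5 and 54.0).

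LP-specific RUNX1 at Zbtb16 was found at 18.7 kb, with LP p300 (58.4), and at 187 kb, with LP Med12 (17.3) and p300 (44.1). The highest-scored CTCF peaks of the locus lay 24.5 kb before the start (212.2 in LP, 193.3 in Phase 1) and 190 kb after it (224.1 and 231.3), and all RUNX1 peaks of the locus fell between them. Zbtb16 was also the gene with most LP-specific p300, 5 of 12 peaks.

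**Figure D3:**
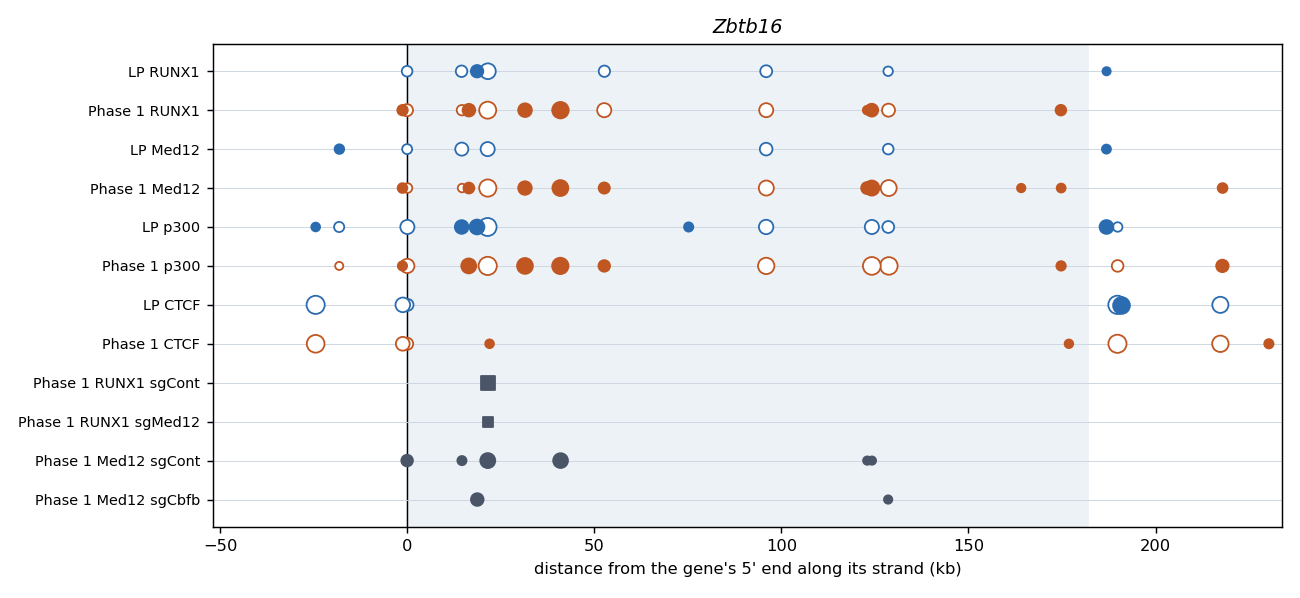
Peaks around Zbtb16 by list (rows) against distance from the 5' end of the gene along its strand in kb; the shaded area is the gene body. Symbols grow with the peak's percentile in its own list. In the stage lists, open circles are shared between LP and Phase 1 and filled circles stage-specific; in the Med12 guide lists, filled means absent from the other guide's list; squares are RUNX1 guide lists, for which no such class is drawn. None of the 6 sgCont Med12 peaks recurs under sgCbfb.

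Tbx21 (ENSMUSG00000001444.2, chr11:97098071-97115331, minus strand) had more RUNX1 peaks in Phase 1 within and around the gene but none at its own start, where only an LP CTCF peak (25.3) was listed. RUNX1 had 5 peaks in LP and 8 in Phase 1, of which 4 were Phase 1-specific (50.0%, interval 21.5% to 78.5%, 32.7% in the whole list at the same scores). As many Phase 1-specific peaks lay around 6.71% of coding genes, and as many per 100 kb (3.41) were found at 2.50%. Inside the gene, 12.0 kb after the start, RUNX1 (44.0), Med12 (44.6) and p300 (72.9) were listed in Phase 1 only, next to a CTCF peak at 13.4 kb that was present in both stages (194.0 and 182.1). The same combination appeared 19.0 kb after the start (RUNX1 28.0, Med12 18.6, p300 22.8), just past the gene's end, and 43.9 kb before it (28.2, 31.1 and 51.4). The remaining Phase 1-specific RUNX1 peak, 28.4 kb before the start in an intron of Tbkbp1, scored 40.4 and had no other protein. For this peak and that at 43.9 kb, the nearest coding start was that of Tbkbp1.

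Shared RUNX1 peaks at Tbx21 lay 13.8 kb before the start (25.7 in LP, 29.8 in Phase 1), 26.9 kb before it (120.8 and 122.1), 35.4 kb before it (55.9 and 25.4) and 64.6 kb after it at the start of Osbpl7 (58.6 and 36.8). The site at 26.9 kb, in an intron of the neighbour Tbkbp1, had the highest RUNX1 scores of all 5 loci in both stages (percentiles 84.0 and 84.5) and also carried Med12 and p300 in both. At 35.4 kb Med12 (51.2) and p300 (61.5) were listed in LP only although RUNX1 remained in both stages. The single LP-specific RUNX1 peak, 42.6 kb after the start (17), was the one that overlapped CTCF, which was strong in both stages there (188.0 and 228.4). The CTCF peak with the highest score lay 31.6 kb before the start (229.9 and 233.2).

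Eomes (ENSMUSG00000032446.14, chr9:118478212-118486132, plus strand) had the fewest peaks, and none of its RUNX1 peaks lay in the gene or before it. The gene itself held only CTCF, in a coding exon 1.0 kb after the start (69.1 in LP, 42.3 in Phase 1), and a stronger CTCF peak followed at 11.6 kb (221.1 and 224.2). Between them, at 10.2 kb, CTCF was listed in LP only (76.7). RUNX1 was listed at the start of the neighbour Golga4 at 28.0 kb (38.5 and 42.5) and in its introns at 38.3 kb (15.9 and 18.6) and 46.8 kb. The last of these was the highest-scored LP-specific RUNX1 peak of the 5 loci, with a score of 83.9 (percentile 72.2), and came with Med12 (60.8) and p300 (119.7) that were likewise missing from Phase 1. At 38.3 kb the opposite was seen for Med12 (16.6) and p300 (28.7), which joined RUNX1 in Phase 1 only.

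Nfil3 (ENSMUSG00000056749.7, chr13:52967209-52981073, minus strand) kept its RUNX1 and Med12 occupancy. All 5 RUNX1 peaks and all 5 Med12 peaks were shared between the stages, so 0 of 5 RUNX1 peaks were Phase 1-specific (interval 0% to 43.4%), compared with 22.7% of the whole list at the same scores. RUNX1 sat at the start of Nfil3 (59.1 in LP, 73.6 in Phase 1), at 20.3 kb after it (17.2 and 26.1), at 19.5 kb (57.6 and 40.2) and 20.5 kb before it (55.8 and 38.3), and at 51.5 kb, the start of the neighbour Auh (95.2 and 101.5). p300 differed more. At the Nfil3 start it was listed in LP (60.4) and not in Phase 1, and 1.9 kb before the start it was listed in Phase 1 (53.8) and not in LP. That second site held the strongest CTCF peak of the 5 loci (340.7 and 343.0, percentiles 98.9 and 97.5). CTCF was LP-specific at 12.8 kb (23.2) and 20.5 kb (26.8) before the start.

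**Figure D4:**
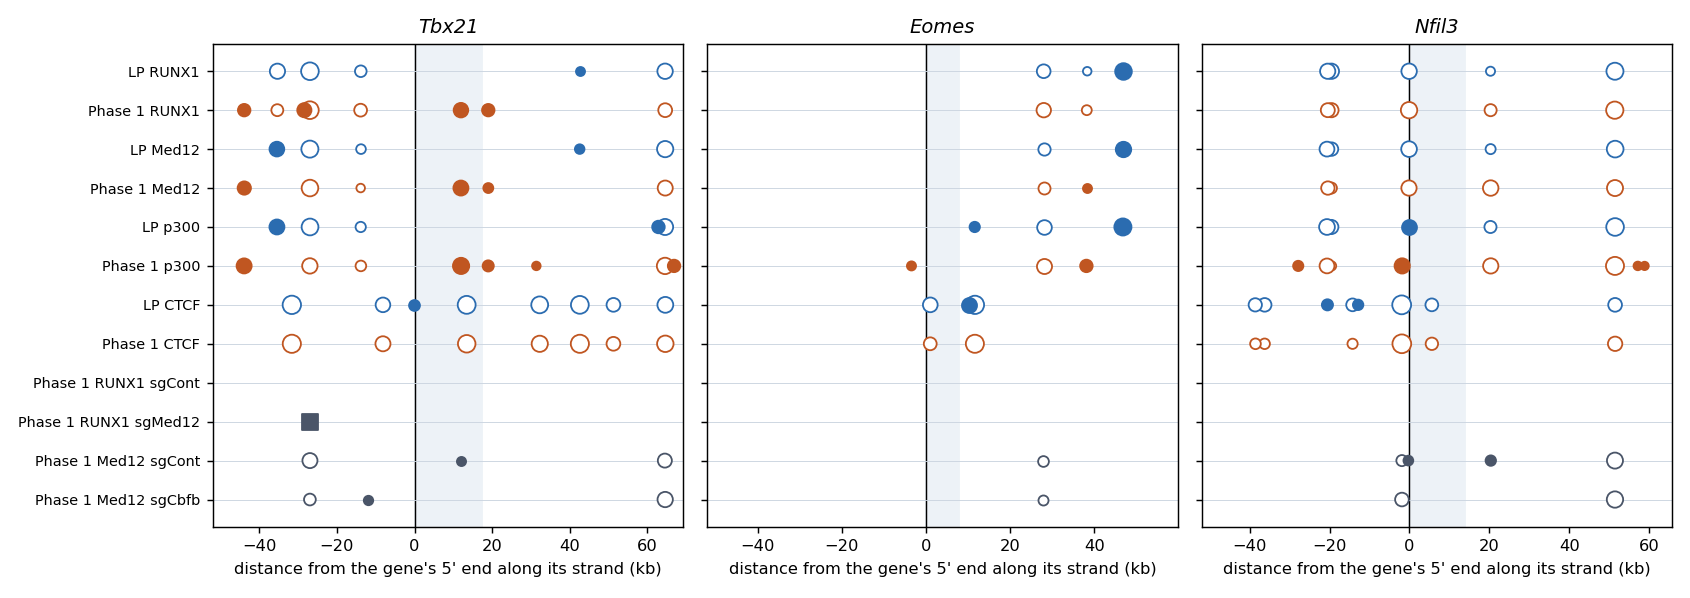
Peaks around Tbx21, Eomes and Nfil3 by list (rows) against distance from each gene's 5' end along its strand in kb, drawn as in the map of Zbtb16. Filled RUNX1 circles of Phase 1 appear only in the Tbx21 panel, the filled LP circle at 46.8 kb stands out for Eomes, and all RUNX1 circles of Nfil3 are open.

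Rora (ENSMUSG00000032238.17, chr9:68653786-69388246, plus strand) spans 734 kb, and RUNX1 was confined in these lists to its last part and the neighbour Ice2. The density of RUNX1 peaks was 0.479 per 100 kb in LP and 0.599 in Phase 1, compared with medians of 2.19 and 2.64 over coding genes. No RUNX1 or Med12 peak lay between the upstream start and the internal start 636 kb downstream, where only CTCF and 2 Phase 1-specific p300 peaks at 174 kb (34.5) and 181 kb (18.6) were listed. RUNX1 sat at the internal start (32.2 in LP, 38.6 in Phase 1), in an intron at 682 kb (58.0 and 117.6) and beyond the gene at 741 kb (33.0 and 15.4) and 744 kb, the start of Ice2 (28.3 and 31.9). The intronic site had Med12 (49.6 and 108.8) and p300 (55.3 and 76.8) in both stages, at Phase 1 percentile 83.5 for RUNX1. The only Phase 1-specific RUNX1 peak, at 778 kb in an intron of Ice2, scored 19.8 and came with Med12 (25.3) and p300 (45.7).

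CTCF at Rora was stable and separate. All 10 LP peaks were shared, a single weak Phase 1 peak at 161 kb (17.8) was added, and none of the 11 CTCF sites held RUNX1, Med12 or p300. The strongest lay at 704 kb (175.3 and 171.6) and 714 kb (163.6 and 145.9), between the intronic RUNX1 site and Ice2. At the other 4 genes, 10 of 28 CTCF sites also held at least 1 of those proteins. Most CTCF peaks of the whole lists were likewise shared and alone. There, 9.55% of LP and 8.35% of Phase 1 CTCF peaks were stage-specific. No RUNX1, Med12 or p300 peak overlapped 76.7% and 76.4% of them, respectively.

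**Figure D5:**
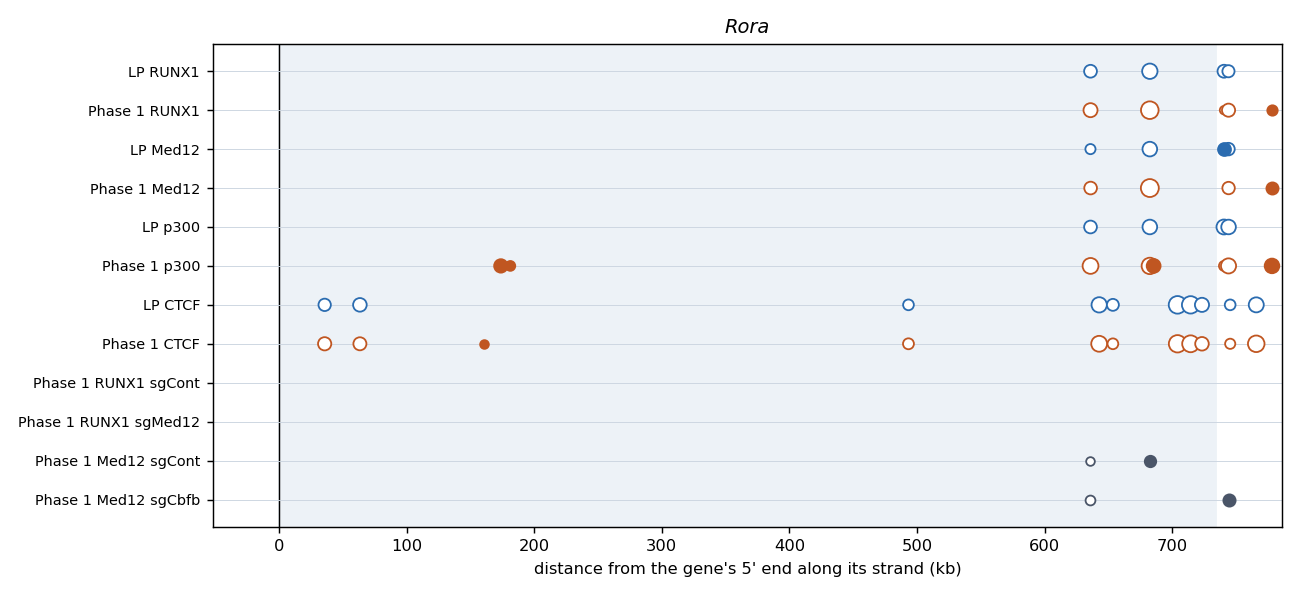
Peaks around Rora by list (rows) against distance from its upstream 5' end in kb, drawn as in the map of Zbtb16. RUNX1 and Med12 circles begin at the internal start at 636 kb, and CTCF circles lie at places the other proteins do not share.

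Gene starts were compared with the genome. RUNX1 lay within 1 kb of the gene's 5' end at Zbtb16 and Nfil3 in both stages, 2 of 5 genes, compared with 45.2% of coding genes in LP and 45.9% in Phase 1. Phase 1-specific RUNX1 was found in the windows of 3 of the 5 genes (Zbtb16, Tbx21 and Rora), compared with 52.2% of all coding genes, and LP-specific RUNX1 in those of 3 (Zbtb16, Tbx21 and Eomes), compared with 38.3%. The nearest coding start belonged to the gene itself for 158 of the 281 peaks (60 at Zbtb16, 21 at Tbx21, 7 at Eomes, 29 at Rora and 41 at Nfil3), and the other peaks were assigned by the window alone. At Zbtb16 this includes intronic peaks more than 100 kb into the gene, which lie nearer to Nnmt.

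The lists from cells with guides asked which occupancy depends on Cbfβ, Med12 or CTCF. Med12 in sgCont Phase 1 cells had 16 peaks at the 5 genes, and 6 of them were also listed with sgCbfb (37.5%, interval 18.5% to 61.4%), compared with 67.8% of the whole sgCont list. The interval lies under this background. Of the 16 peaks, 9 were in the lowest-scored 20% of the list, where 39.0% recurred, and over the whole list promoter peaks recurred more often (92.3%) than others (49.8%). At the same score and promoter classes, the whole list had 55.3%, inside the interval. Without promoter peaks, 2 of 10 recurred (20.0%, interval 5.67% to 51.0%), compared with 49.8%, which the interval holds. Within 20 kb of the genes 2 of 12 did (16.7%). Neither of these shares was compared with the list at the same scores. The sgCbfb list had 10 peaks here, 6 shared and 4 of its own.

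Zbtb16 differed most between these guides. Its 6 sgCont Med12 peaks lay at the start (22.4) and at 14.6 kb (16.6), 21.5 kb (38.4), 40.9 kb (37.0), 123 kb (15.3) and 124 kb (15.2), all places with a Phase 1 RUNX1 peak. Most sgCont Med12 peaks of the other genes overlapped such a peak too, and this share was not computed over the whole list. None of the 6 at Zbtb16 was listed with sgCbfb (interval 0% to 39.0%, 48.7% in the whole list at the same scores and promoter classes). The sgCbfb list instead had peaks at 18.7 kb (26.1), where RUNX1 was LP-specific, and at 129 kb (15.3). Elsewhere Med12 was absent with sgCbfb at the Tbx21 intronic site at 12.0 kb (sgCont 16.6), the Rora intronic site at 682 kb (21.8), the Nfil3 start (17.9) and 20.3 kb after it (19.2).

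Of the 6 Med12 peaks listed with both guides, those at the starts of Osbpl7 (32.4 with sgCont, 42.7 with sgCbfb), Golga4 (20.0 and 18.4) and Auh (47.4 and 54.1) and at the internal start of Rora (15.8 and 18.0) lay at transcription starts. One lay in the Tbkbp1 intron 26.9 kb before Tbx21 (38.8 and 23.0), and one at the strong CTCF site 1.9 kb before Nfil3 (20.9 and 30.9), where no RUNX1 was listed. The other peaks found with sgCbfb alone were 11.9 kb before Tbx21 (17.1) and at the start of Ice2 (24.5).

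The RUNX1 guide lists were too short to compare at these genes. In LP neither sgCont nor sgCTCF had a peak, in Phase 1 sgCont had 1, at 21.5 kb in Zbtb16 (25.2), and sgMed12 had 2, at the same place (15.4) and 26.9 kb before Tbx21 (24.0). Thus 2 of the 5 genes had a RUNX1 peak of any guide list, compared with 26.4% of coding genes. Both places were also the RUNX1 sites with the highest scores of their genes in the main lists.

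Notch1-IC was not listed at any of the 5 genes at any stage, compared with 13.9% of coding genes that had a Notch1-IC peak of at least 1 list in their window. With lists of 1585, 152 and 352 peaks in LP, Phase 1 and Phase 2, absence from a list does not show absence of binding. The study's text describes larger Notch1-IC sets for Phase 1 and Phase 2 than the lists used here, and the reason is not given in the sources used here. The nearest peaks were those of the LP list 95.4 kb past the end of Zbtb16 (18.1) and 75.8 kb before Tbx21 (35.8), and of the Phase 2 list 83.0 kb past the end of Rora (16.0), nearest to Nnmt, Kpnb1 and Anxa2, respectively.

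Further genes of innate lymphoid cells were read in the same way. Some of them, such as Tcf7, Gata3 and Bcl11b, also belong to the T-lineage program in the study, so the counts are not particular to innate lymphoid cells. Among 12 other transcription factors, 11 had Phase 1-specific RUNX1, 10 LP-specific RUNX1 and 5 Notch1-IC of any stage in their windows. Over all coding genes these shares were 52.2%, 38.3% and 13.9%, respectively. The Notch1-IC counts pool the lists of all stages. The longest of these lists came from LP cells without Notch ligand (1585 peaks, compared with 152 in Phase 1). The pooled counts therefore do not show binding that followed Notch stimulation. The median number of Phase 1-specific RUNX1 peaks of the 12 was 3, compared with 1 for the 5 genes and 1 for all coding genes. Prdm1, which encodes the repressor Blimp-1, had 8, close to the 7 of Zbtb16, and Zfp683, which encodes its relative Hobit, had 5. Id2, the inhibitor that opposes E proteins in all innate lymphoid lineages, had none. Among 13 receptors and effectors, 12 had Phase 1-specific RUNX1 (background 52.2%), 5 LP-specific RUNX1 (background 38.3%) and 6 Notch1-IC of any stage (background 13.9%). Phase 1-specific RUNX1 peaks numbered 7 at Gzma (granzyme A), 7 at Pdcd1 (the inhibitory receptor PD-1) and 0 at Ifng (interferon-γ). These windows differ in length, so the counts describe the loci and do not rank them.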

How the data were processed

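The deposited files were 17 peak lists from ChIP-seq of Cas9-LP cells. Per the submitters' processing notes and the study's methods, reads were aligned to mm10 with Bowtie 1.1.1, peaks were called with HOMER against a control, and peaks reproducible between the 2 replicates by the irreproducible discovery rate were kept. The peak score was normalized by the authors, and what it was normalized to was not stated. The methods give only an approximate depth common to all samples, so no depth per list was used.

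Gene bodies came from GENCODE M21 and sequences from RefSeq's GRCm38 (coordinates 1-based). Peaks were assigned by centre within 50 kb of a gene body and compared by overlap of at least 1 bp with Python 3.11.15, pandas 2.3.3, numpy 2.4.6, pysam 0.24.0 and samtools 1.23.1, and the overlap code was tested on simulated data. The lists of genes, members and peak classes were chosen with earlier results of these data known. Peaks named by rule were the highest-scored of each RUNX1 class, the highest-scored CTCF, Med12 and p300 peak of a gene, and every RUNX1 peak of a guide list. Other peaks were named after their values were seen, to account for every RUNX1 peak. Whole-list shares at equal score classes were also added then.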

Additional observations from a re-analysis of the deposited data

How the results depend on the processing

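Of 130 recalculations under other settings, 118 stayed within the interval or count of the value reported. Many of these intervals are wide, so a value inside one does not show a stable result. With lists of equal length the order of the stages turned for Med12 (35.0% in Phase 1, 43.5% in LP) and p300 (46.2% and 51.7%). Those values still counted as inside. The recalculations used windows of 20 or 100 kb, an overlap of at least 50% of the shorter peak, a minimum score of 30, no promoter peaks, lists of equal length, the loci without Rora, and, chosen after seeing the data, a distance of 500 bp that counts as shared. The other 12 follow. Within 20 kb, 0 of 2 LP-specific RUNX1 peaks overlapped CTCF (0.0%), 9 of 9 Phase 1-specific RUNX1 peaks overlapped Med12 (100%), 2 of 12 sgCont Med12 peaks recurred with sgCbfb (16.7%), and the sgMed12 RUNX1 list had 1 peak. Within 100 kb, Notch1-IC had 2 peaks in LP and 1 in Phase 2, and RUNX1 had 2 with sgCont and 6 with sgMed12 in Phase 1. At a minimum score of 30, 0 of 24 Phase 1 CTCF peaks were Phase 1-specific (0.0%), 0 of 4 LP-specific RUNX1 peaks overlapped CTCF (0.0%), and both Phase 1 RUNX1 guide lists had 0 peaks. The cause of these shifts was not tested. Single replicates could not be left out, since each list combines both. No paired analysis was possible because the lists carry no value per replicate. Of the peaks near the window's edge, 21 lay 40 to 50 kb and 36 lay 50 to 60 kb from a gene body. The short Notch1-IC and RUNX1 guide lists limit what their absence can show.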

Other observations

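Some p300 was listed at these loci with no RUNX1, Med12 or CTCF peak at the same site. The share of such peaks in the whole p300 lists was not computed, so the counts describe these loci only. In Phase 1 there were 9 such sites, with scores from 15.4 to 38.1. They lay at Rora 174 kb, 181 kb and 685 kb after the upstream start, at Tbx21 31.4 kb and 66.9 kb after the start, at Eomes 3.4 kb before the start, and at Nfil3 27.8 kb before and 57.2 kb and 58.9 kb after the start. In LP there were 2, inside Zbtb16 at 75.2 kb (17.8) and at Tbx21 62.8 kb after the start in an intron of Osbpl7 (32.6). The highest score among the Phase 1 sites belonged to the Rora intronic peak at 685 kb (38.1), next to the shared RUNX1 site at 682 kb.

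Med12 without RUNX1 was rarer at these loci, and its share of the whole Med12 lists was not computed either. At Zbtb16 it was listed in Phase 1 at 164 kb (15.5) alone and at 218 kb (18.2) with p300 (28.3), and in LP 18.2 kb before the start (18.8) with p300 of both stages (20.6 and 15). These are single lists without replicate values, and low scores like these are the ones most often missing from the other stage.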
